A study of Mus musculus with 20 samples.

Results

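The genes described here encode the collagens of the basement membrane and the proteins that link its networks, measured by RNA-seq in mouse lung. They were taken by symbol: the type IV collagen chains Col4a1, Col4a2, Col4a3, Col4a4, Col4a5 and Col4a6, the collagens Col15a1 and Col18a1, the linker Nid1 and the proteoglycan Hspg2. All 10 symbols were found among the 24062 genes listed in the count tables, and all 10 were among the 15766 that passed a filter on low counts. The lungs came from adult mice of a mixed C57/129 background, 8 to 10 weeks old, that were Arg2+/+ (wild type) or Arg2-/- (knockout). Arg2 encodes the mitochondrial arginase. Mice of each genotype breathed either room air, at 21% oxygen, or a gas of 10% oxygen, called hypoxia, over a period of 28 days. This gave 4 groups of 4 samples, numbered as in the labels: wild type room air, wild type hypoxia, knockout room air and knockout hypoxia. Chronic hypoxia raises pulmonary artery pressure, and the comparisons set its effect on the lung with Arg2 beside that without it. The labels name no cell type to which the knockout is limited, and RNA was taken from lung tissue without sorting of cells.

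A basement membrane is a thin sheet of matrix on which endothelium and epithelium rest and which surrounds muscle cells and pericytes. Type IV collagen chains join in trimers that crosslink into a network, laminins form another, and nidogen and the heparan sulfate proteoglycan perlecan tie them together. The chains of Col4a1 and Col4a2 occur in nearly every basement membrane. Those of Col4a3, Col4a4 and Col4a5 form another kind of trimer, found in the kidney glomerulus and in the lung alveolus, and those of Col4a5 and Col4a6 a further kind, found around smooth muscle and in some epithelia.

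Between 9531270 and 63331530 reads per sample were counted in genes. Sample 3 of wild type room air was the shallowest and had 25.3% of its uniquely aligned reads in genes. Here and below, this share leaves out reads that aligned at several places. Sample 1 of wild type hypoxia had 35.3%, sample 3 of knockout hypoxia 37.4%, and the other 13 samples had 46.9% to 63.6%. Summed markers of alveolar type I cells (6064 to 7145 CPM, counts per 1000000 of the scaled library total) and endothelium (4648 to 5625 CPM) were high in all 16 samples. Markers of other organs stood out in wild type room air 1 (skeletal muscle, 1307 CPM), knockout room air 3 and 4 (thymocytes, 88.5 and 75.4 CPM) and knockout hypoxia 1 (pancreas, 1045 CPM), and to a lesser degree in knockout hypoxia 2 and 3 (pancreas, 84.3 and 11.9 CPM). Knockout room air 3 also had the highest sum of heart muscle markers, 1050 CPM, beside 182 to 609 in the other samples. One of the fits below leaves out the 5 samples in which such a sum was over 5 times its median across samples: wild type room air 1, knockout room air 3 and knockout hypoxia 1 to 3. Knockout room air 4 fell short of that limit and stays in this fit. Arg2 itself measured 7.30 to 11.8 CPM in wild type room air, 6.33 to 11.7 in wild type hypoxia, 4.58 to 7.78 in the libraries labelled knockout room air and 3.22 to 5.37 in those labelled knockout hypoxia. Knockout room air 4, at 7.78 CPM, lay inside the wild type range. The sources used here do not say which exons the knockout removes, so a total over the gene is a weak check. No call given below for the 10 genes between 2 groups changed without that sample. The labels name both sexes, but all 16 samples had more Y-linked counts (3192 to 22024) than Xist counts (0 to 8). By these counts the groups did not differ in sex, which matters for the X-linked Col4a5 and Col4a6. In RNA from whole lung, a change in the number of cells of a type and a change in RNA per cell cannot be told apart.

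The 6 type IV genes lie head to head in pairs. On GRCm38, Col4a1 covers chromosome 8 from 11198423 to 11312826 on the minus strand and Col4a2 from 11312805 to 11449287 on the plus strand. Their first exons overlap by 22 bases. Col4a3 lies on chromosome 1 from 82586921 to 82722059 on the plus strand and Col4a4 from 82448423 to 82586849 on the minus strand, with starts 72 bases apart. Col4a5 lies on chromosome X from 141475385 to 141689234 on the plus strand and Col4a6 from 141165403 to 141474076 on the minus strand, with starts 1309 bases apart. The other genes stand alone: Col15a1 on chromosome 4 (47208161 to 47313167, plus), Col18a1 on chromosome 10 (77052178 to 77166548, minus), Nid1 on chromosome 13 (13437551 to 13512269, plus) and Hspg2 on chromosome 4 (137468769 to 137570630, plus).

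The promoter windows of the paired genes are shown because partner chains are compared with each other below, and the pairs differ in how much sequence between the partners they share. Each window is the RefSeq sequence on GRCm38.p6 from 250 bases before to 50 bases after a start, 5′ to 3′ on the strand of the gene. Of the 10 genes, 9 had a window in the table used, and Col4a3 had none. Capitals mark exact matches on either strand to the GC box GGGCGG, the CCAAT box CCAAT and ACGTG, a core of the hypoxia response element. No 2 matches overlap in these windows.
Col4a2, chr8:11312555-11312854, plus strand: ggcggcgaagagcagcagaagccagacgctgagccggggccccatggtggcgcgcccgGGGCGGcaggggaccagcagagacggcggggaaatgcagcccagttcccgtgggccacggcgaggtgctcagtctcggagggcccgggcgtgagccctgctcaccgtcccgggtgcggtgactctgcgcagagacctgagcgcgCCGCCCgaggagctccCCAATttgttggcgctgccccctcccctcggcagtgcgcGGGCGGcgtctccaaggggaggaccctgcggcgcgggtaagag
Col4a1, chr8:11312777-11313076, minus strand: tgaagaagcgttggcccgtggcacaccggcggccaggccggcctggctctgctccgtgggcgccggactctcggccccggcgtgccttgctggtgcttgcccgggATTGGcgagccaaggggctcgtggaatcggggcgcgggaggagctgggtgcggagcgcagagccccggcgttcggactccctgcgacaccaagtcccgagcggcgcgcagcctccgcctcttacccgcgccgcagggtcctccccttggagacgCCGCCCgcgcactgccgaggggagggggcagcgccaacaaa
Col4a4, chr1:82586800-82587099, minus strand: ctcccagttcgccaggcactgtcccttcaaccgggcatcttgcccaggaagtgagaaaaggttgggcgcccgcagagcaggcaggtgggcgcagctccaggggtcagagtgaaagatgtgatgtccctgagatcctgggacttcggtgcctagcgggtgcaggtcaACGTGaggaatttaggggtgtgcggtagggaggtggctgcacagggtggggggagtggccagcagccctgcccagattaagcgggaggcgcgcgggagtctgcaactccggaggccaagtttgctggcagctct
Col4a5, chrX:141475169-141475468, plus strand: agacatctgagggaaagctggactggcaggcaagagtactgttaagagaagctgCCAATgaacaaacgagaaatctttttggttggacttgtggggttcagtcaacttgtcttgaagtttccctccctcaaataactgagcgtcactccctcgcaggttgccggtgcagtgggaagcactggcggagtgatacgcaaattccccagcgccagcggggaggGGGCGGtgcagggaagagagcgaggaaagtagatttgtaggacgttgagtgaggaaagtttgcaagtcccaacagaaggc
Col4a6, chrX:141474027-141474326, minus strand: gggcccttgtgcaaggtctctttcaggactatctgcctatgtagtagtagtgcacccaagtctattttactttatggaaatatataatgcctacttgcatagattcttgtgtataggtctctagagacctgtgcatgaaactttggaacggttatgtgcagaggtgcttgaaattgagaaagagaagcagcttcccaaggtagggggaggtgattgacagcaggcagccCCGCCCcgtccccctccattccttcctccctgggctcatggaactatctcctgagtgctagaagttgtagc

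The Col4a1 and Col4a2 windows share 78 bases, read from opposite strands, and the last GC box of the Col4a2 window is also the GC box of the Col4a1 window. The Col4a4 window contains the annotated start of Col4a3. The Col4a5 and Col4a6 windows share no base. The Col4a2 window held 3 GC boxes and 1 CCAAT box, and the Col4a1 window 1 of each. Col4a5 held 1 of each as well, Col4a6 a single GC box, and Col4a4 a single ACGTG and no other match. Of the 32851 promoter windows in the table, 35.7% held at least 1 GC box, 37.4% a CCAAT box and 19.6% ACGTG. At least 3 GC boxes were held by 10.7%. Among the windows of the 9 genes, ACGTG matched in that of Col4a4 alone. A match is a description of the letters only.

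Per kilobase of exon, the Col4a1 and Col4a2 genes had the highest levels in each group. In wild type room air, Col4a1 had 142 ± 11.4 CPM per kb (SD, n = 4) and Col4a2 113 ± 13.9, with overlapping sample ranges. Col4a3 followed at 44.2 ± 1.92 CPM per kb and Col4a5 at 30.9 ± 3.42, and both ranges stood apart from their neighbours. Nid1 (22.9 ± 1.18), Hspg2 (21.0 ± 9.27) and Col4a4 (20.2 ± 2.85) overlapped with each other. Col18a1 (6.64 ± 0.61), Col4a6 (5.38 ± 0.28) and Col15a1 (1.78 ± 0.47) were the lowest and did not overlap. The order of the first 4 genes and of the last 3 was the same in the 4 groups, while Nid1, Hspg2 and Col4a4 changed places. In wild type hypoxia, Col15a1 reached 3.58 ± 0.46 CPM per kb and its range met that of Col4a6 at 4.44 ± 0.39. The plot of levels per length shows the distance between the first pair and the rest.

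**Figure D1:**
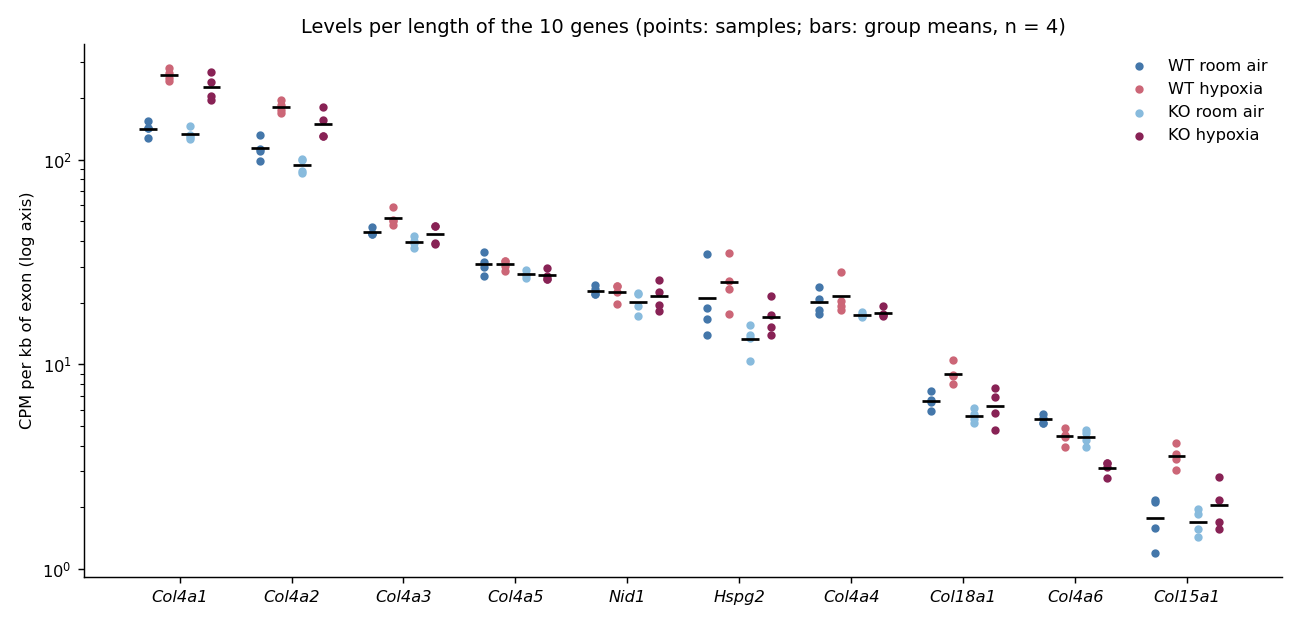
Level of each gene as CPM per kilobase of exon, on a log axis, in the 4 groups. Points are samples (n = 4 a group) and bars are group means. Col4a1 and Col4a2 lie at 85.9 CPM per kb or above in every sample, and Col15a1 and Col4a6 at 5.74 or below.

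Hypoxia raised the pair Col4a1 and Col4a2 in both genotypes. In wild type, 4 of the 10 genes were higher and 0 lower in hypoxia: Col4a1, Col4a2, Col15a1 and Col18a1. Of all genes tested, 4.98% were called in this comparison, 2.67% as higher and 2.31% as lower. In the knockout, Col4a1 and Col4a2 were higher and Col4a6 lower, 3 of 10, beside 17% of all genes, 7.93% higher and 9.1% lower. A gene was called at an adjusted p under 0.05 (edgeR quasi-likelihood test, Benjamini-Hochberg adjustment over all genes tested). The median log2 fold change of the 10 genes was 0.25 in wild type and 0.14 in the knockout, beside -0.01 and 0.00 for all genes. Where sample ranges are said below not to overlap, the same was so for 8.23% of all genes with hypoxia in wild type, 24.4% with hypoxia in the knockout and 25.4% between genotypes in hypoxia.

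Col4a1, one of the chains of the ubiquitous trimer, measured 1064, 1155, 947 and 1064 CPM in wild type room air samples 1 to 4. In wild type hypoxia it measured 1986, 2084, 1872 and 1798 CPM. Each hypoxia sample lay well above each room air sample. In the knockout, Col4a1 measured 983, 1086, 942 and 959 CPM in room air and 1989.6, 1781, 1459 and 1522 CPM in hypoxia. These groups did not overlap either, and the hypoxia samples were more spread than in wild type. The log2 fold change was 0.87 ± 0.097 (SE) in wild type (adjusted p = 1.39e-05) and 0.77 ± 0.097 in the knockout (adjusted p = 2.49e-05).

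Col4a2, its partner in the trimer, measured 731, 872, 649 and 746 CPM in wild type room air. It measured 1228, 1286, 1114 and 1162 CPM in wild type hypoxia. The ranges were separate, as for Col4a1. In the knockout, Col4a2 measured 662, 667, 582 and 568 CPM in room air and 1195, 1028, 859.9 and 866 CPM in hypoxia, with knockout hypoxia 1 the highest for both partners. Hypoxia changed Col4a2 by 0.68 ± 0.11 in wild type (adjusted p = 0.000667) and 0.67 ± 0.11 in the knockout (adjusted p = 0.000272) on the log2 scale. In the knockout, the calls of both chains and of Col4a6 were lost in the edgeR fit without the 5 samples past the limit on markers of other organs. The log2 fold change was then 0.60 for Col4a1 (adjusted p = 0.052), 0.46 for Col4a2 (adjusted p = 0.182) and -0.46 for Col4a6 (adjusted p = 0.168). That fit keeps only knockout hypoxia 4 of its group, and assumes that this sample varies like those of the other groups. When wild type room air 1, knockout room air 3 and 4 and knockout hypoxia 1 were left out in its place, the 3 calls stood, with 0.62 for Col4a1, 0.47 for Col4a2 and -0.42 for Col4a6.

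Markers of some cell types differed in level between the same groups. The sum of 7 pericyte markers ranged from 302 to 470.3 CPM in wild type room air and from 459 to 615 in wild type hypoxia, and from 293 to 367 and from 478 to 618 in the knockout. Of the 7, Rgs5 and Higd1b were called higher with hypoxia in both genotypes. Among all genes, 2.67% were called higher in wild type and 7.93% in the knockout. In the knockout Rgs5 went from a mean of 7.11 to 153 CPM, while Pdgfrb measured 144 and 127 CPM. The sum of 8 fibroblast markers went from 1677 to 1855 CPM to between 2236 and 2484 in wild type, and from 1734 to 2039 CPM to between 1640 and 2325 in the knockout. All 7 pericyte and 8 fibroblast markers were detected in each group. Of the 8, only Mfap4 was called with hypoxia, as higher in both genotypes. The summed endothelial and alveolar type I markers overlapped between all groups, but single endothelial markers were called in both directions. With hypoxia in the knockout, Pecam1, Tie1 and Emcn were higher and Kdr and Eng lower, and in wild type Emcn was higher and Kdr and Eng lower. The summed markers of lymphocytes were 113 to 209 CPM in room air and 67.6 to 118 in hypoxia in wild type, and 107 to 139 and 43.3 to 62.9 CPM in the knockout. Those of heart muscle were 340 to 609 and 254 to 407 CPM in wild type, and 439 to 1050 and 182 to 399 CPM in the knockout. The part of any cell type in the changes of the collagen genes was not tested.

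**Figure D2:**
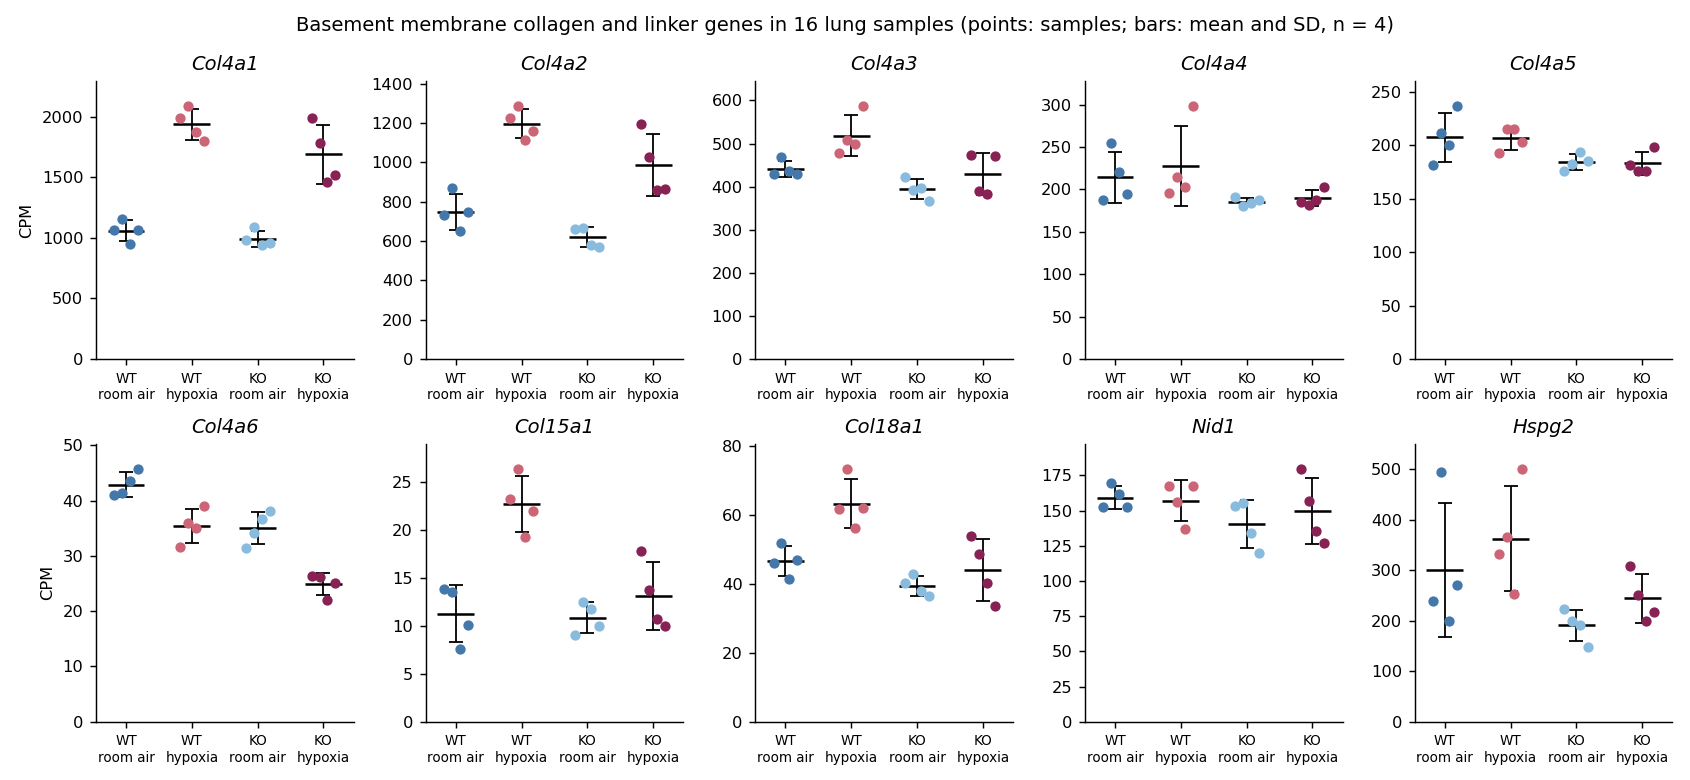
CPM of each of the 10 genes in the 16 lung samples, grouped by genotype and air. Points are samples, bars the mean and SD (n = 4), and each axis starts at 0 with its own scale. Col4a1 and Col4a2 are separated by hypoxia in both genotypes, Col15a1 is separated in wild type, and Col4a6 is lowest in knockout hypoxia.

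None of the 3 chains of the alveolar and glomerular trimer was called with hypoxia in either genotype. Col4a3 measured 429, 469, 435 and 430.1 CPM in wild type room air and 478, 508, 498 and 586 CPM in wild type hypoxia. These groups did not overlap, but the log2 fold change of 0.23 ± 0.087 did not pass the test (adjusted p = 0.159). In the knockout it measured 422, 392, 398 and 367 CPM in room air and 473, 389, 384 and 471 CPM in hypoxia, with overlapping groups (0.12 ± 0.087, adjusted p = 0.389).

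Col4a4, the neighbour of Col4a3, measured 188, 254, 221 and 195 CPM in wild type room air and 196, 215, 203 and 298 CPM in wild type hypoxia, where sample 4 stood above the rest. Its knockout samples were all within 180.4 to 203 CPM. The log2 fold change with hypoxia was 0.09 ± 0.12 in wild type and 0.03 ± 0.12 in the knockout, and neither was called. Col4a5, the chain common to the latter kinds of trimer, lay between 176 and 237 CPM in all 16 samples. Its log2 fold change was -0.01 ± 0.080 in wild type (95% interval -0.17 to 0.16) and -0.01 ± 0.080 in the knockout (-0.18 to 0.16). Neither interval reaches the change of Col4a1.

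Col4a6, the least abundant type IV chain, was the one member of the set with a lower level in hypoxia that passed the test. It measured 41.0, 41.3, 43.5 and 45.7 CPM in wild type room air and 31.6, 36.0, 35.04 and 39.1 CPM in wild type hypoxia. In the knockout it measured 31.4, 34.1, 36.7 and 38.0 CPM in room air and 26.3, 26.2, 22.1 and 25.0 CPM in hypoxia. In both genotypes every hypoxia sample lay below every room air sample. In the knockout it fell by 0.49 ± 0.087 on the log2 scale (adjusted p = 0.000643). In wild type the log2 fold change of -0.27 ± 0.087 was not called (adjusted p = 0.0814), but it was with total counts as the only scaling and without wild type hypoxia 4, with adjusted p from 0.0417 to 0.358 over all alternatives. The difference between the 2 hypoxia effects, -0.22 ± 0.12, was not called (adjusted p = 0.455).

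Col15a1 and Col18a1 encode the multiplexin collagens, which sit between the basement membrane and the matrix around it. Col18a1 carries the sequence of endostatin at its end. Col15a1 measured 13.8, 13.5, 7.63 and 10.1 CPM in wild type room air and 23.3, 26.3, 19.3 and 21.998 CPM in wild type hypoxia. The groups were clearly apart, and the log2 fold change was 0.98 ± 0.19 (adjusted p = 0.00339). In the knockout it measured 9.06, 12.5, 11.8 and 9.96 CPM in room air and 17.8, 13.7, 10.7 and 10.0 CPM in hypoxia. Only knockout hypoxia 1 and 2 lay above the room air range there. Summed pancreas markers were 1044.5, 84.3, 11.9 and 3.21 CPM in knockout hypoxia samples 1 to 4. The part of other organs in these levels was not tested. The log2 fold change in the knockout was 0.28 ± 0.19 (adjusted p = 0.358), and -0.06 without the 5 samples past the limit on markers of other organs.

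Col18a1 measured 46.1, 51.9, 41.5 and 46.9 CPM in wild type room air and 61.7, 73.3, 56.3 and 61.9 CPM in wild type hypoxia, with no overlap. Its log2 fold change of 0.44 ± 0.12 passed narrowly (adjusted p = 0.0412). The call was lost in 15 of 33 alternatives, among them those that left out sample 1, 3 or 4 of wild type room air, sample 1, 2 or 4 of wild type hypoxia, or sample 1 or 3 of knockout room air (adjusted p from 0.0028 to 0.16 over all of them). In the knockout, Col18a1 measured 40.3, 43.0, 38.0 and 36.4 CPM in room air and 53.8, 48.7, 40.4 and 33.6 CPM in hypoxia, which overlapped (0.16 ± 0.12, adjusted p = 0.414).

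The linkers did not pass the test with hypoxia. Nid1, whose product nidogen binds laminin and type IV collagen, lay between 137 and 169.6 CPM in the 8 wild type samples and between 119.7 and 179.6 CPM in the 8 knockout samples. Its log2 fold change was -0.02 ± 0.11 in wild type (95% interval -0.24 to 0.21) and 0.09 ± 0.11 in the knockout (-0.13 to 0.32). Hspg2, which encodes perlecan, varied widely within the wild type groups. It measured 238, 494, 199 and 271 CPM in wild type room air and 332, 365, 253 and 500.0 CPM in wild type hypoxia. Sample 2 in room air and sample 4 in hypoxia were the highest of their groups. In the knockout it measured 222, 199.5, 192 and 149 CPM in room air and 309, 250.3, 199 and 218 CPM in hypoxia. The intervals of its log2 fold change were wide, -0.30 to 0.84 in wild type and -0.21 to 0.92 in the knockout.

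Comparing the genotypes under room air, 0 of the 10 genes were called by edgeR, beside 0.0761% of all genes tested (0.0571% higher and 0.019% lower in the knockout). An unadjusted p under 0.05 was found for 4 of them, Col4a2, Col4a5, Col4a6 and Hspg2, and for 21.6% of all genes. DESeq2 and limma voom each called 1 gene, Col4a6, as lower in the knockout, where DESeq2 called 7.1% and limma voom 6.08% of all genes. All 10 log2 fold changes were negative, from -0.66 ± 0.27 for Hspg2 to -0.09 ± 0.19 for Col15a1, and 8 of 10 once the trend of each sample on GC content was removed, when Col4a1 and Col15a1 became positive. Of all genes, 52.5% were negative, and the medians were -0.19 for the 10 genes and -0.02 for all. Col4a6 (log2 fold change -0.29 ± 0.087, adjusted p = 0.0804) did not overlap between the genotypes, and neither did Col4a3, as was so for 10.4% of all genes. Both Col4a6 and Col4a2 were called when sample 3 of wild type room air was left out. In that fit 2198 of 15915 genes tested were called in this comparison.

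The samples of the genotypes also differed in how counts ran with GC content. At the GC content of Hspg2 (60.9%), the trend relative to the mean of all samples was 0.03, 0.22, -0.09 and 0.09 in wild type room air and -0.07, -0.03, -0.10 and -0.09 in knockout room air, on the log2 scale. Wild type room air 3, the sample with the fewest reads in genes, thus lay with the knockout samples. At the GC content of Nid1 (50.4%), the same trend spanned -0.03 to 0.07 over all 16 samples. With the trend removed, the room air fold change of Hspg2 was -0.49 and that of Col4a6 -0.20. The part of GC content in the differences between genotypes was not tested beyond this.

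In hypoxia, 4 of the 10 genes were lower in the knockout, Col4a3, Col4a6, Col15a1 and Col18a1, and 0 were higher. Of all genes, 23% were called in this comparison, 11% as higher and 12.1% as lower. All 10 log2 fold changes were negative, with a median of -0.27 (all genes, -0.01). They remained so with the GC trend removed, while 8 of 10 were negative when the 3 samples with few reads in genes were also left out, with Col4a1 and Nid1 above 0. Col15a1 showed the greatest difference, -0.80 ± 0.19 (adjusted p = 0.00672), and its level in wild type hypoxia (19.3 to 26.3 CPM) lay above all knockout hypoxia samples (10.0 to 17.8). Col18a1 differed by -0.52 ± 0.12 (adjusted p = 0.0059). Its call held in all 33 alternatives, with -0.91 without the 5 samples past the limit on markers of other organs. Col4a6 differed by -0.51 ± 0.088 (adjusted p = 0.000918).

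Markers of several cell types were lower in the same comparison. Those called lower in knockout than in wild type hypoxia were 4 of 7 for alveolar type II cells (Etv5, Abca3, Slc34a2 and Sftpb), 3 of 6 for smooth muscle (Des, Myh11 and Cnn1), 3 of 8 for fibroblasts (Col1a1, Col1a2 and Col3a1) and 7 of 8 for lymphocytes, with 0 higher in these 4 lists. The summed smooth muscle markers were 742 to 998 CPM in wild type hypoxia and 569.7 to 846 in knockout hypoxia, and those of type II cells 19532 to 26516 and 20539 to 23583 CPM. Of 10 endothelial markers, 3 were higher and 2 lower, and of 7 pericyte markers 1 was higher and 1 lower. Alveolar type I cells had 1 of 8 markers lower, mesothelium 1 of 4 and airway epithelium 1 of 5 tested, with 0 higher. Beside these counts, 12.1% of all genes were called lower and 11% higher. The part of these cells in the lower collagen levels was not tested.

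Col4a3 differed by -0.27 ± 0.087 (adjusted p = 0.0326), and this call was lost in 12 of 33 alternatives, among them those without wild type hypoxia 2, 3 or 4 or knockout hypoxia 2 or 3. Its neighbour Col4a4 had nearly the same value, -0.27 ± 0.12, and was not called (adjusted p = 0.0999). Col4a1 (-0.20 ± 0.097) and Col4a2 (-0.28 ± 0.11) were not called either. Without knockout hypoxia 1 both were, and Col4a2 also without wild type room air 3 and with upper quartile scaling. Hspg2 (-0.57 ± 0.27) was called without wild type room air 2. Nid1 had the smallest difference, -0.07 ± 0.11. When the 5 samples past the limit on markers of other organs were dropped, Col18a1 was the single call, while Col15a1 was at -1.18 (adjusted p = 0.0517) and Col4a6 at -0.50 (adjusted p = 0.114).

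By edgeR, the hypoxia effects of the 2 genotypes differed by a called amount for 0 of the 10 genes, beside 0.501% of all genes. DESeq2 and limma voom called 0 as well, beside 3.07% and 0.526% of all genes. One gene, Col15a1, had an unadjusted p under 0.05, as had 14.1% of all genes. Its effect in the knockout minus that in wild type was -0.71 ± 0.27 (95% interval -1.27 to -0.15, adjusted p = 0.23). For Col18a1 the difference was -0.28 ± 0.17 (adjusted p = 0.5). That both passed the test with hypoxia in wild type and not in the knockout thus does not show that the genotypes responded differently. The 2 hypoxia comparisons share no samples, while each shares samples with the comparisons between genotypes.

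**Figure D3:**
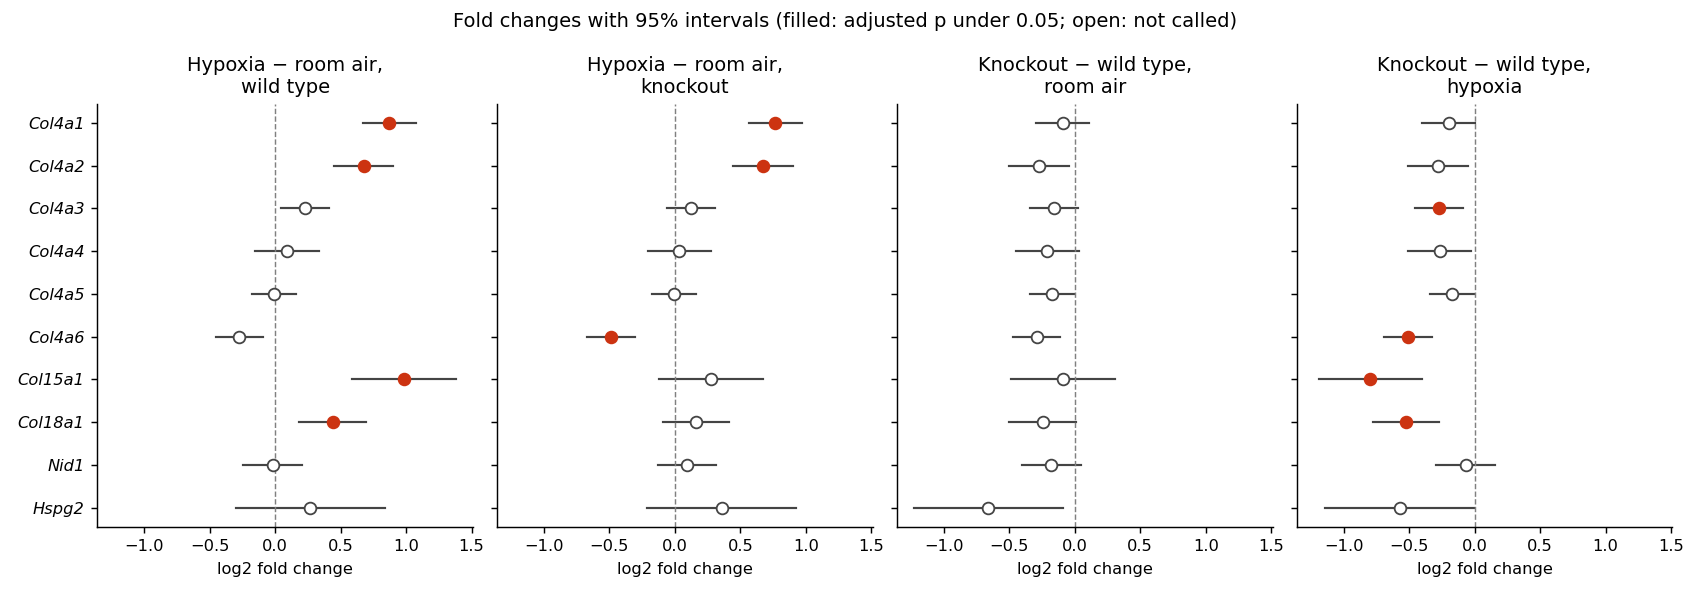
Log2 fold change of each gene in the 4 comparisons, with 95% intervals. Filled points passed an adjusted p of 0.05 and open points did not. With hypoxia, Col4a1 and Col4a2 lie to the right of 0 in both genotypes and Col4a6 to the left, and between genotypes all points lie left of 0.

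Partner chains were also compared within samples, as the log2 ratio of their counts, which does not depend on the scaling of libraries. The partners Col4a1 and Col4a2 kept the closest ratio: its SD within groups was 0.059, below the 0.14 and 0.16 of the log2 levels of either chain. For Col4a3 and Col4a4 the ratio had an SD of 0.13, beside 0.12 and 0.18 for the chains, and for Col4a5 and Col4a6 0.11, beside 0.10 and 0.11. Each of 4 ratios was tested in 4 comparisons with an exact two-sided permutation test over samples. With 4 samples against 4, the smallest p possible is 0.0286. In 7 of the 16 tests the groups did not overlap and this p was reached. The adjusted p was then 0.0653, so none passed 0.05 after adjustment. With this smallest p, passing would have needed most of the 16 tests to reach it, whatever the size of a shift. The adjusted p therefore cannot tell large shifts from small ones here.

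The log2 ratio of Col4a1 to Col4a2 was 0.54, 0.41, 0.54 and 0.51 in wild type room air and 0.69, 0.70, 0.75 and 0.63 in wild type hypoxia. The shift of 0.19 left no overlap (exact p = 0.0286, adjusted p = 0.0653). In knockout room air the ratio was 0.57, 0.70, 0.69 and 0.75, which overlapped with wild type hypoxia and lay 0.18 above wild type room air (exact p = 0.0286, adjusted p = 0.0653). In knockout hypoxia it was 0.74, 0.79, 0.76 and 0.81, which overlapped with knockout room air. Both chains rose with hypoxia, and the ratio describes the small excess of Col4a1. The partners differ in GC content, 57.7% for Col4a1 and 60.6% for Col4a2.

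The log2 ratio of Col4a3 to Col4a4 stayed between 0.88 and 1.35 over the 16 samples, with overlapping groups in all 4 comparisons (exact p of 0.2 or above). That of Col4a5 to Col4a6 moved more. It was 2.15, 2.36, 2.20 and 2.37 in wild type room air and 2.61, 2.58, 2.62 and 2.38 in wild type hypoxia. It was 2.49, 2.42, 2.40 and 2.28 in knockout room air and 2.79, 2.75, 2.99 and 2.99 in knockout hypoxia. Knockout hypoxia stood above all other samples, and wild type hypoxia above wild type room air. The shift was 0.28 with hypoxia in wild type, 0.48 with hypoxia in the knockout and 0.33 between genotypes in hypoxia, each with an exact p of 0.0286 (adjusted p = 0.0653). Between genotypes in room air it was 0.13, with overlap (exact p = 0.143, adjusted p = 0.229). Per kilobase, the Col4a5 level was 5.26 to 9.43 times that of Col4a6 across samples.

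The trimer of alveolus and glomerulus was set against the ubiquitous one as the mean log2 count of Col4a3, Col4a4 and Col4a5 minus that of Col4a1 and Col4a2. This measure was -1.72 ± 0.13 (SD, n = 4) in wild type room air and -2.40 ± 0.20 in wild type hypoxia, a shift of -0.68. In the knockout it was -1.72 ± 0.11 in room air and -2.38 ± 0.24 in hypoxia, a shift of -0.66. Neither genotype's groups overlapped (exact p = 0.0286, adjusted p = 0.0653). Between genotypes it differed by 0.01 in room air and 0.02 in hypoxia, with overlap (exact p = 0.971 and 0.886). In both genotypes the ubiquitous pair was thus higher in hypoxia relative to the other chains.

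**Figure D4:**
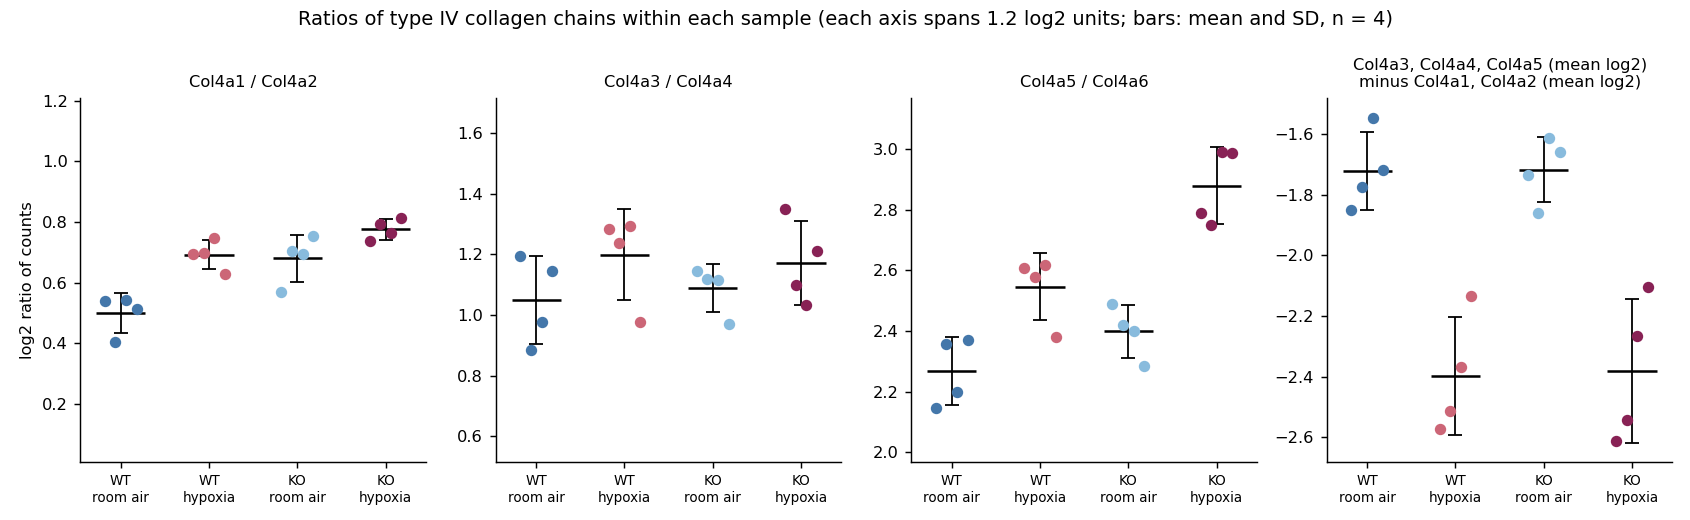
Log2 ratio of counts of partner chains in each sample, and the mean log2 count of Col4a3, Col4a4 and Col4a5 minus that of Col4a1 and Col4a2. Points are samples and bars the mean and SD (n = 4), and each axis spans 1.2 log2 units. The Col4a5 to Col4a6 ratio is highest in knockout hypoxia, and the last panel separates hypoxia from room air in both genotypes.

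Other genes of the basement membrane were described from lists chosen for this purpose. Of 11 laminin chains, 2 were higher with hypoxia in wild type (all genes, 2.67%) and 3 in the knockout (all genes, 7.93%). Lama1 rose from 4.43 ± 0.86 to 14.1 ± 2.15 CPM in wild type (log2 fold change 1.66) and from 6.48 ± 2.27 to 15.7 ± 4.35 in the knockout (1.30). Lamc3 rose in both genotypes (0.96 and 0.61), and Lamb2 in the knockout (0.52). Between genotypes in hypoxia, 4 laminin chains were lower in the knockout, beside 12.1% of all genes. The 3 with the smallest p were Lamc1 (log2 fold change -0.41), Lamc3 (-0.55) and Lamb3 (-0.29).

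Of 20 other basement membrane components, 2 rose with hypoxia in wild type (all genes, 2.67%), and in the knockout 3 rose and 1 fell (all genes, 7.93% and 9.1%). Fbln2, a fibulin that binds laminin and nidogen, rose from 22.5 ± 5.14 to 47.6 ± 5.84 CPM in wild type and from 18.3 ± 3.28 to 86.4 ± 7.47 in the knockout. Its hypoxia effect was larger in the knockout by 1.18 ± 0.21 (adjusted p = 0.0153), 1 of 20 beside 0.279% of all genes in this direction. Sparc, a collagen-binding protein that acts on the deposition of type IV collagen, rose from 1378 ± 78.1 to 1878 ± 275.7 CPM in wild type and from 1338 ± 57.0 to 1989 ± 90.8 in the knockout. In the knockout Vwa1 also rose (1.04) and Smoc1 fell (-0.81). In hypoxia, Npnt (-0.33) and Fras1 (-0.78) were lower in the knockout, 2 of 20 beside 12.1% of all genes, and Fbln2 was higher (0.86).

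Of 19 enzymes and chaperones that fold, modify and crosslink collagen, 2 rose with hypoxia in wild type, Loxl2 and Plod1 (all genes, 2.67%), and 9 in the knockout (all genes, 7.93%). P4ha2, a subunit of prolyl hydroxylase, measured 49.5 ± 5.09 and 53.6 ± 6.34 CPM in wild type room air and hypoxia, and 51.5 ± 6.85 and 94.8 ± 10.5 CPM in the knockout. Plod1, a lysyl hydroxylase, measured 46.3 ± 4.03 and 59.9 ± 6.41 CPM in wild type, and 47.7 ± 5.63 and 96.6 ± 8.81 CPM in the knockout. The difference between the hypoxia effects passed the edgeR test for both, at 0.76 ± 0.16 for P4ha2 (adjusted p = 0.0356) and 0.65 ± 0.14 for Plod1 (adjusted p = 0.0455). These were 2 of the 19, beside 0.279% of all genes in this direction. Unlike the 10 genes, single genes of these further lists were not followed through all the alternatives. The collagen chaperone Serpinh1 rose in the knockout, from 461 ± 98.7 to 779.6 ± 62.4 CPM, and in hypoxia was higher there than in wild type (log2 fold change 1.00). In knockout hypoxia 6 of the 19 were higher than in wild type hypoxia and 3 lower (all genes, 11% and 12.1%), among the latter the peroxidasin gene Pxdn (-0.49), whose product makes the sulfilimine crosslinks of type IV collagen. Of the type IV chains themselves, Col4a3 and Col4a6 were called lower in knockout than in wild type hypoxia, and none was called higher.

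Of 14 receptors for basement membrane, 1 rose with hypoxia in wild type, Itga7 (1.06), beside 2.67% of all genes. In the knockout 5 rose and 2 fell, beside 7.93% and 9.1% of all genes. Itga6, a laminin receptor subunit, measured 287.6 ± 31.9 and 313 ± 21.1 CPM in wild type room air and hypoxia, and 291 ± 17.9 and 549 ± 33.1 CPM in the knockout, a difference between effects of 0.80 ± 0.12 (adjusted p = 0.00555). Of the 14, 1 was called for this difference, beside 0.501% of all genes. In hypoxia, the collagen receptor Ddr1 (-0.64), Itga3 (-0.55) and Itgb4 (-0.76) were lower in the knockout, and Itga6 and Itgb1 higher. These were 3 and 2 of 14, beside 12.1% and 11% of all genes. Of 14 proteases and inhibitors, Mmp2, a gelatinase that cleaves type IV collagen, rose in wild type (0.76) and in the knockout (0.55), and Tll1 fell in both (-0.76 and -0.60). Mmp9, the other gelatinase, fell with hypoxia in the knockout (-1.52) and Timp3, an inhibitor of these enzymes, rose (0.43). Between genotypes in hypoxia, Timp3 was higher in the knockout (0.33), and Mmp9 (-1.15), Mmp14 (-0.40) and Mmp15 (-0.57) were lower. That was 1 and 3 of 14, beside 11% and 12.1% of all genes. Under room air, edgeR called 0 genes of these 5 lists between genotypes. An unadjusted p under 0.05 was found for 8 of the laminin chains, 4 of the other components, 6 of the modifying enzymes, 5 of the receptors and 2 of the proteases and inhibitors, beside 21.6% of all genes. DESeq2 called 1, 2, 2, 2 and 0 of them in that order, and limma voom 0, 2, 2, 0 and 0, beside 7.1% and 6.08% of all genes.

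Genes that ran most alike with 3 of the 10 were found by Pearson's r of log2 CPM over the 16 samples, which share groups, depth and GC trends, and are given as a description. For Col4a1 they included Itih4 (0.97), Dysf (0.96), Adam23 (0.96) and Mgll (0.96). For Col4a3 they were Lama3 (0.91), Etl4 (0.89), Magi1 (0.89), Cgnl1 (0.88) and Snx19 (0.88). Lama3 encodes a laminin chain of epithelia. For Hspg2 they were Agrn (0.97), which encodes the proteoglycan agrin, Piezo1 (0.96), Slit3 (0.96), Htt (0.96) and Sh3bp4 (0.96).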

How the data were processed

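RNA was measured in 20 libraries of frozen mouse lung. Per the labels' protocols, ribosomal RNA was depleted and a directional kit was used. Per the submitters' processing notes, Trim Galore, TopHat2, HTSeq and mm10 were used. Their versions, the annotation and the strand setting are not given there. The authors deposited raw counts per gene symbol, and 5 lines that name no gene stayed out. In 4 cases an A and a B library carry the same number. They differed less (chi-square per degree of freedom 1.55 to 2.03) than libraries of different number (3.76 to 144) and were summed, which gave 16 samples. The highest values came from wild type hypoxia 4, at 137, 144 and 141 against samples 1, 2 and 3 of its group. Those 3 samples differed from each other by 4.76 to 8.27, and no pair without wild type hypoxia 4 exceeded 22.2. The labels do not say that numbers are separate animals, so the p-values speak of the variation among these samples only, which may be technical.

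The counts went through edgeR 4.0.16 in R 4.3.3: filterByExpr (minimum count 10, total 15; 15766 genes kept), TMM scaling, a robust quasi-likelihood fit of the 4 groups without covariates, two-sided tests, and Benjamini-Hochberg adjustment over all genes. Chain ratios are log2 of counts with 0.5 added, adjusted over 16 tests. CPM uses TMM-scaled totals, and CPM per kb the union of GENCODE vM21 exons. The edgeR fit was tested on simulated counts, for hypoxia in wild type. It called 40 of 50 genes raised 2-fold and 35 of 49 changed 0.5-fold. Of genes changed 1.5-fold it called 29 of 49, and of those changed 0.667-fold 16 of 47, with 11 calls among unchanged genes. A gene not called may thus still have changed. All 10 genes are named in each comparison, with up to 3 called genes of smallest p per direction from each further list and the 5 genes most correlated with Col4a1, Col4a3 and Hspg2. One gene that this rule names is not reported here. Members and lists were chosen with earlier results of these data known. Alternatives covered scaling, filter, tool (DESeq2 1.42.0, limma 3.58.1), groups in the fit, A or B library, GC trend, replicate block and samples left out.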

Additional observations from a re-analysis of the deposited data

Results flagged for a closer look

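In 3 cases a single sample stood apart from the other 3 of its group by Dixon's criterion at the 95% level, out of 56 groups of values examined, where chance alone gives about 1 in 20. Col4a3 in wild type room air 2 measured 469 CPM, while the other 3 samples lay between 429 and 435. The log2 ratio of Col4a3 to Col4a4 in knockout room air 4 was 0.97, below 1.12 to 1.15 in the others. The log2 ratio of Col4a5 to Col4a6 in wild type hypoxia 4 was 2.38, below 2.58 to 2.62 in the others of that group. Wild type hypoxia 4 also had a TMM scaling factor of 0.80, where the other 15 samples lay between 0.97 and 1.05. Its counts differed from those of the rest of its group by a chi-square per degree of freedom of 137 to 144, more than in any other pair within a group.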

How the results depend on the processing

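The calls of Col4a1, Col4a2 and Col15a1 with hypoxia in wild type, and of Col18a1 between genotypes in hypoxia, held in all 33 alternatives run. Of the 10 genes, the number called between genotypes in room air was 1 with DESeq2, with limma voom, when leaving out sample 3 of wild type room air with sample 4 of wild type hypoxia, and when leaving out the 3 samples under 40% of reads in genes. In that order, 1120 and 959 of 15766, 2524 of 15903 and 1856 of 15868 genes tested were called. Among the 10, the number was 0 to 2 when leaving out 1 sample, where 0 to 2198 of all genes were called. Without the 5 samples past the limit on markers of other organs it was 0 for hypoxia in the knockout and 1 between genotypes in hypoxia, with fewer samples fitted. The cause of the other changes was not tested. Over all genes, calls ranged from 400 to 1215 for hypoxia in wild type (785 as reported), 434 to 3424 in the knockout (2685), 0 to 2524 between genotypes in room air (12; DESeq2 1120), 274 to 4337 in hypoxia (3633) and 9 to 484 for the difference of effects (79).

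Signs turned only in values that were not called. In what follows, "few reads" leaves out the 3 samples under 40% of reads in genes, "other organ" the 5 samples past that limit, and "strongest 4" wild type room air 1, knockout room air 3 and 4 and knockout hypoxia 1. The last setting, few reads with and without the GC trend, and the one without sample 3 of wild type room air and sample 4 of wild type hypoxia (here "3 and 4") were chosen after seeing the data. For hypoxia in wild type, Col4a4 turned to -0.0143 with total counts only and -0.039 without 3 and 4, and Hspg2 to -0.0667 without the latter. Col4a5 turned to 0.0055 with upper quartile scaling, 0.0072 with the B library only, 0.0023 with GC trend and replicate block, 0.0103 with few reads and 0.0368 with few reads and GC trend. Leaving out 1 sample gave -0.0636 to 0.184 for Col4a4, -0.0657 to 0.0637 for Col4a5 and -0.0504 to 0.0431 for Nid1.

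For hypoxia in the knockout, Col4a4 turned to -0.0267 with total counts only and -0.0166 with the B library only. Col4a5 turned to 0.0 with the A library only, 0.1343 with other organ, 0.0326 with strongest 4, 0.0101 with few reads and 0.0091 with few reads and GC trend. Other organ gave -0.0565 for Col15a1, -0.2458 for Col18a1 and -0.1689 for Nid1, and strongest 4 gave -0.0279 for Col18a1 and -0.1415 for Nid1. Leaving out 1 sample gave -0.0034 to 0.0525 for Col4a4, -0.0512 to 0.0145 for Col4a5 and -0.0071 to 0.1649 for Nid1.

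Between genotypes in room air, Col4a1 turned to 0.0431 with the GC trend removed, 0.0419 with the block as well and 0.039 with few reads and GC trend. Col15a1 turned to 0.0449 and 0.0782 in the former pair, to 0.001 with strongest 4, and ranged from -0.2104 to 0.0225 when leaving out 1 sample. In hypoxia, few reads and GC trend gave 0.0086 for Col4a1 and 0.0493 for Nid1, and few reads 0.0087 for Nid1, which ranged from -0.1677 to 0.0046 when leaving out 1 sample.

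For the difference of effects, few reads gave 0.0201 for Col4a1 and 0.1311 for Col4a2. Col4a2 also turned to 0.0187 with total counts only, 0.0008 with the A library only, 0.0293 without 3 and 4 and 0.053 with few reads and GC trend. Other organ gave 0.0431 for Col4a3, 0.0991 for Col4a4, 0.1988 for Col4a5 and -0.1328 for Nid1. Strongest 4 gave 0.0107 for Col4a4, 0.0982 for Col4a5, -0.1044 for Nid1 and -0.096 for Hspg2. Col4a4 was 0.0683 without 3 and 4, and Col4a5 was 0.0177 with total counts only and 0.0027 with the A library only. Leaving out 1 sample gave -0.1093 to 0.0581 for Col4a2, -0.1519 to 0.0926 for Col4a4, -0.0734 to 0.0557 for Col4a5 and -0.2618 to 0.2744 for Hspg2.

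Among ratios, that of Col4a3, Col4a4 and Col4a5 over Col4a1 and Col4a2 turned between genotypes to -0.0581 in room air and -0.0516 in hypoxia with the GC trend removed, to -0.0715 in room air with other organ and to -0.0808 in hypoxia with few reads. Leaving out 1 sample gave -0.0371 to 0.0635 in room air and -0.0759 to 0.1043 in hypoxia. Col4a3 over Col4a4 in hypoxia was 0.013 with other organ and 0.0499 with few reads, and leaving out 1 sample gave -0.0172 to 0.0861 in room air and -0.1 to 0.0211 in hypoxia.

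Same-numbered samples of different groups deviated together with correlations from -0.327 to 0.46 and a median of 0.107 (other numbers, -0.559 to 0.531, median -0.049). Between wild type room air and hypoxia they were 0.327, 0.293, 0.46 and -0.127 for numbers 1 to 4. Since not every pair was above 0.1, the numbers were not taken as pairing. With the replicate block, 4, 3, 0, 5 and 0 of the 10 genes were called, in the order hypoxia in wild type, in the knockout, genotype in room air, in hypoxia and difference of effects. Of the 15766 genes tested, 823, 2714, 238, 3819 and 157 were called with the block, in the same order. The fifth gene between genotypes in hypoxia was Col4a2 (-0.29, adjusted p = 0.021 with the block), and the other calls were those of the fit without it. Depth limits Col15a1 most, with 7.63 CPM in its lowest sample.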
